A study of Mus musculus with 10 samples.

Results

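The comparison described here is culture time in cells that received no β-ecdysterone. It sets the library of 0 μM cells on day 10 against the library of 0 μM cells on day 5, which are 2 of the 10 libraries of the series. The libraries were chosen by their labelled dose and day. All genes with 50 or more counts in either library were kept, which gave 12510 of the 29583 genes and loci in the table; 11631 of these had an Ensembl identifier and 879 were loci that the authors assembled anew. MC3T3-E1, the cell line named in the labels, is a line of osteoblast precursors from newborn mouse calvaria; the labels give strain C57BL/6 and age newborn, but name the source as bone marrow mesenchymal stem cells. The same medium with 100, 150 or 200 μM β-ecdysterone, a plant steroid, was given to the 6 other libraries with a dose and a day, and 2 further libraries were labelled untreated with no time.

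Each dose and day had 1 library. The protocol mentions extraction with n = 3, and whether those extractions were pooled is not given in the sources used here, so no replicate error could be computed for the day change at 0 μM and no test of it was made. Each ratio below is day 10 over day 5 in CPM (counts scaled by library size with TMM factors) and is given on the log2 scale. The 95% interval beside a ratio is an exact Clopper-Pearson interval that covers counting error only. "Higher" and "lower" therefore describe these libraries.

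Osteoblast precursors in culture divide, reach confluence and leave the cell cycle, while they lay down a matrix of type I collagen and other proteins. Runx2 and Sp7 (osterix) are the transcription factors of the osteoblast lineage. Alkaline phosphatase (Alpl) marks the onset of mineralizing activity, and Bglap (osteocalcin) and Dmp1 mark later stages. Cells that copy their DNA also make large amounts of the core and linker histones, whose messages end in a stem-loop instead of a poly(A) tail, while replacement histones such as H3f3b are made from polyadenylated messages throughout the cell cycle.

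Little separated the 0 μM library of day 10 from that of day 5. The day 5 library held 48951468 counts and the day 10 library 31300928, and 98.5% of the 12510 genes lay within 2-fold of an equal level. Over 2-fold higher on day 10 were 60 genes (0.48%), and over 2-fold lower were 129 (1.03%). At 1.5-fold the numbers were 217 higher (1.73%) and 431 lower (3.45%). The median log2 ratio was -0.003 with an interquartile range of 0.22, and 49.2% of the ratios were positive. Counts of mitochondrially encoded genes made up 4.53% of the total in both libraries.

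The larger number of lower genes depended on the filter. A count of 50 was 0.981 CPM in the day 5 library but 1.57 CPM in the shallower day 10 library, so the filter reached lower levels on day 5. Genes with 50 to 200 counts in both libraries together supplied 32 of the higher and 95 of the lower genes, out of 1090. With 2 or more CPM in either library as the filter, 50 genes were over 2-fold higher and 53 lower, and with 5 or more CPM in the higher library 25 were higher and 23 lower, out of 10691. Among genes with 5000 or more summed counts, 1 of 3809 was over 2-fold higher and 3 were lower.

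**Figure D1:**
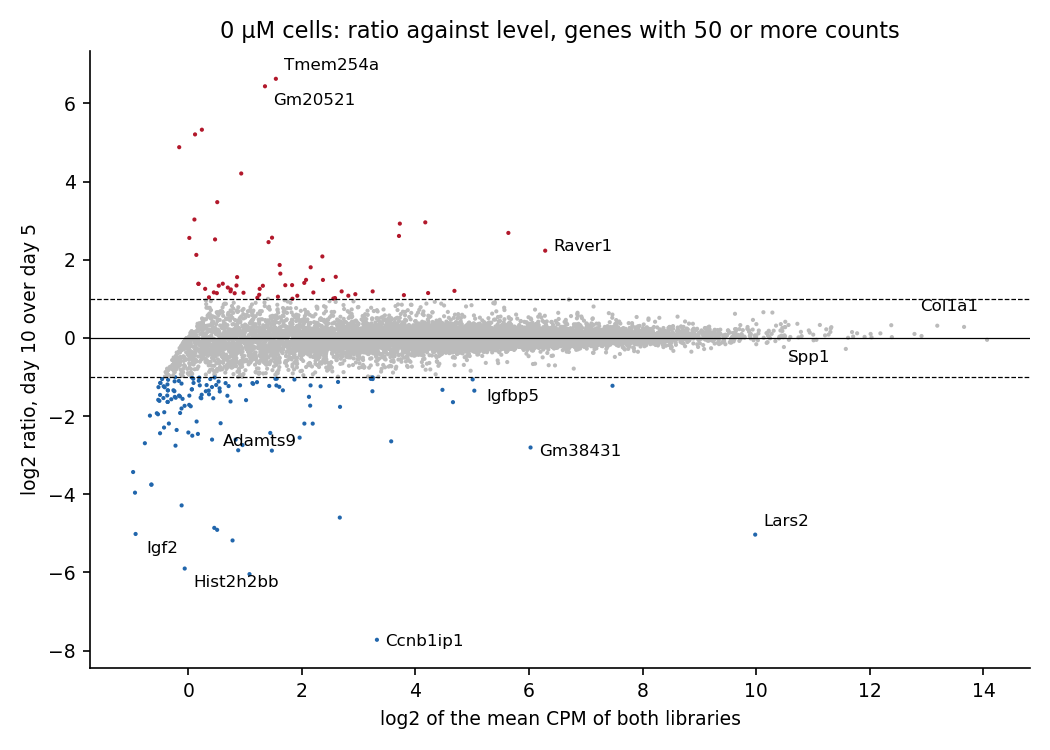
Each point is 1 of the 12510 genes with 50 or more counts in either 0 μM library. The horizontal axis is the log2 of the mean CPM of both libraries and the vertical axis the log2 ratio of day 10 over day 5; dashed lines mark 2-fold, red points lie above it (60 genes) and blue points below it (129 genes), most of them at low level.

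The spread of the ratios was wider than counting error at every depth. For genes with 50 to 200 summed counts the standard deviation of the log2 ratio, estimated from the median absolute deviation, was 0.517, where counting alone gives 0.278. For genes with 5000 or more summed counts it was 0.115 against 0.0307. Accordingly 45.2% of the genes had a counting interval that left out an equal level, so this interval alone does not separate a day difference from variation between cultures or libraries.

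Collagens, Runx2 and Spp1 were well counted at 0 μM on both days, while genes of mineralization and late osteoblasts varied from no counts to levels above those of treated cells. By FPKM, a level per transcript length as deposited, the 10 highest genes on each day included the type I collagen gene Col1a2, at 1997 FPKM on day 5 and 2422 FPKM on day 10, and mitochondrially encoded genes such as mt-Co1. Col1a1, the other chain of type I collagen, stood at 1283 and 1590 FPKM, and Spp1 (osteopontin), a phosphoprotein of bone matrix, at 1084 and 1095 FPKM. Runx2 was counted 4767 times on day 5 and 2786 times on day 10, a log2 ratio of -0.09 (-0.16 to -0.02). Sp7 was counted 307 and 159 times, at -0.27 (-0.55 to 0.01).

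Alpl, in contrast, had 0 counts on day 5 and 2 counts on day 10. In the 6 treated libraries its highest level was 64.4 CPM and its lowest was 16.03 CPM. At 0 μM it was at or under the floor of 3 counts on both days, which allows up to 0.0589 CPM on day 5 and 0.0945 CPM on day 10, and no day ratio is given. Bglap was counted 24 times on day 5 and 7 times on day 10, a log2 ratio of -1.10 with an interval from -2.55 to 0.16 that includes an equal level. Bmp2, a ligand that drives bone formation, had 2 counts and 0 counts. Sp7 was also lower at 0 μM, at 6.02 and 5.01 CPM, than in every treated library, where it lay between 52.2 and 133 CPM. Markers of the labelled lineage therefore went both ways at 0 μM. Type I collagen genes, Runx2 and Spp1 were well counted. Alpl was at or under the floor of 3 counts, Bglap had few counts and Sp7 was below every treated library.

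Of 12 well-counted genes on the list for bone matrix and mineralization, 7 were higher and 5 lower on day 10, with a median of 0.01, and none passed 2-fold. The largest ratios belonged to Bglap2, a second osteocalcin gene, with 65 and 26 counts, and to Omd (osteomodulin), with 69 and 64 counts at a log2 ratio of 0.57 (0.06 to 1.09). Of 9 genes of late osteoblasts and osteocytes, Dmp1 was over 2-fold lower, with 209 counts on day 5 and 56 on day 10, or 4.10 and 1.76 CPM. The day 5 level was above every treated library, where Dmp1 lay between 0.262 and 1.72 CPM. The day 10 level, from 56 counts, was close to the highest of them. Phex, an endopeptidase gene of the same list, was at 5.69 and 5.04 CPM, and its treated day 5 libraries lay between 4.35 and 6.13 CPM. Among 22 osteoblast transcription factors and regulators the median was -0.08. Msx2, a homeobox factor, was higher at 3.81 and 6.68 CPM (0.81, 0.52 to 1.10), while Tcf7 and Lef1, which act with β-catenin in Wnt signalling, were lower at -0.58 and -0.57. For comparison, 49.2% of all well-counted genes were higher on day 10.

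Matrix genes were mostly slightly higher on day 10. Over all well-counted genes, the measure for this and the lists below, 49.2% were higher and 1.73% were over 1.5-fold higher. Of 21 collagen genes 14 were higher, with a median of 0.11, and the summed level of the list went from 32865 CPM to 39265 CPM. Col11a1, a minor fibrillar collagen, showed the largest ratio, with 58.0 and 87.9 CPM (0.60, 0.52 to 0.67). Of 22 genes for collagen processing and crosslinking 17 were higher. Lox, lysyl oxidase, which crosslinks collagen, was counted 49530 and 48338 times, or 972 and 1522 CPM, a log2 ratio of 0.65 (0.63 to 0.67). It was one of 2 genes of that list over 1.5-fold higher; the other was Pcolce2, with 100 and 106 counts.

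Of 17 matricellular and other matrix genes 14 were higher, with a median of 0.17. Postn (periostin) was at 624 and 956 CPM (0.62) and Fbln5, an elastic-fibre protein, at 141 and 213 CPM (0.60). Tgfbi went the other way, from 10.4 to 6.46 CPM (-0.69). Among 9 small leucine-rich proteoglycans, which regulate collagen fibril size, 7 were higher, such as Ogn at 0.45. Lum (lumican), however, was over 2-fold lower with 653 and 196 counts (-1.05, -1.29 to -0.82), and Dcn (decorin) was lower with 1341 and 509 counts (-0.72).

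The matrix proteases contained the largest drop of any matrix gene listed. Adamts9, a secreted metalloprotease that cuts proteoglycans, was counted 117 times on day 5 and 12 times on day 10, a log2 ratio of -2.60 (-3.60 to -1.74). Mmp13 (collagenase) was counted 937 and 925 times, at 18.4 and 29.1 CPM (0.66). Of the 18 well-counted genes in this list 11 were higher and 7 lower, with a median of 0.05.

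Genes for contractile filaments and Yap targets were also higher on day 10 in 21 of 25 cases, with a median of 0.20. Acta2, smooth muscle actin, was counted 44228 and 43411 times, at 868 and 1367 CPM (0.66, 0.64 to 0.67). Actg2, another smooth muscle actin, had a ratio of 0.56 and the actin crosslinker Actn1 one of 0.37. None of the 25 passed 2-fold.

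**Figure D2:**
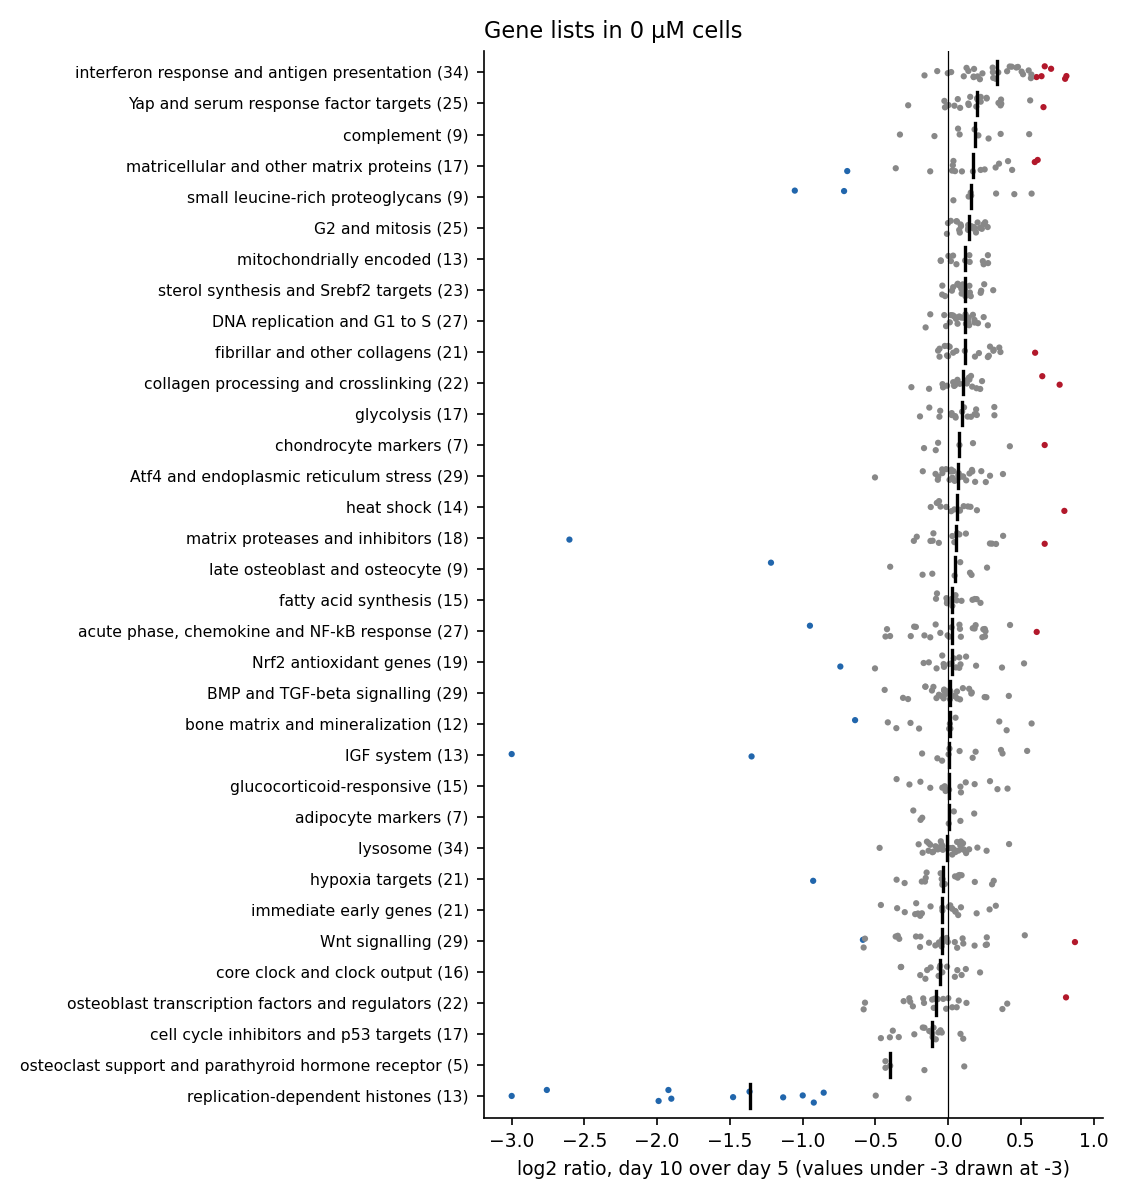
Each point is 1 well-counted member of a gene list at 0 μM, placed by its log2 ratio of day 10 over day 5; the number of members is in parentheses, black bars mark list medians, and red and blue points lie over 1.5-fold. Medians run from 0.34 for the interferon list at the top to -1.37 for the histone list at the bottom. Most of the 13 histone genes passed 50 counts only on day 5, and at 200 or more counts the histone median was -0.50. Values under -3 are drawn at -3.

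The genes of the interferon response and antigen presentation were the list with the highest median. Of 34 members, which respond to interferon or load peptides on class I molecules, 31 were higher on day 10 and 6 passed 1.5-fold. Their median was 0.34, with no member over 2-fold. Over all well-counted genes 49.2% were higher and 1.73% over 1.5-fold higher. Oas1a, an RNA sensor, was counted 464 and 508 times, at a log2 ratio of 0.81. Ifit1, which binds foreign RNA, was counted 1101 and 1198 times, at 21.6 and 37.7 CPM (0.80, 0.68 to 0.92). Oas2 followed at 0.71, the GTPase Igtp at 0.66 and the transcription factor Stat2 at 0.64. The exceptions were H2-K1 at -0.16, Ifi44 at -0.07 and B2m at -0.003. In treated cells the list's median was -0.26 at 100 μM, 0.002 at 150 μM and 0.14 at 200 μM.

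Complement genes leaned the same way, with 7 of 9 higher and a median of 0.18. The 27 genes of the acute phase, chemokine and NF-κB response did not, with 15 higher, 12 lower and a median of 0.02. There the receptor gene Il1rl1 was at 91.3 and 139 CPM (0.61), and Cxcl5, a chemokine, at 62 and 20 counts (-0.95, -1.76 to -0.20).

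Genes of the cell cycle shifted by small amounts in a common direction. Of 25 genes of G2 and mitosis 23 were higher on day 10, with a median of 0.14 and values up to 0.27 for Foxm1, a transcription factor of mitotic genes. Of 27 genes of DNA replication 23 were higher, with a median of 0.12; Mcm5, part of the replicative helicase, was counted 7511 and 5656 times, at 147 and 178 CPM (0.27). Cell cycle inhibitors and p53 targets were lower in 15 of 17 cases, with a median of -0.11. Btg2, which slows proliferation, was at 97.6 and 70.9 CPM (-0.46), and Cdkn1a (p21) at 258 and 204 CPM (-0.34, -0.38 to -0.30). No member of these lists reached 1.5-fold. In treated cells the mitotic list had a negative median at each dose, -0.19, -1.03 and -0.68 at 100, 150 and 200 μM.

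The histone genes of the replication-dependent clusters did not follow the replication genes. The table held 67 of them, named Hist1 to Hist4, a set widened from a list of 27 after values had been seen. Because many enter a filter on single libraries only through day 5, they are described here without that filter. Together they were counted 5299 times on day 5 and 1990 times on day 10, or 104 and 62.7 summed CPM, so the day 5 level was 1.66-fold that of day 10 (1.58 to 1.75). On day 5 the treated libraries stood at 114, 108 and 112 summed CPM at 100, 150 and 200 μM, and on day 10 at 149, 110 and 109. The 0 μM library of day 10 was thus the lowest of the 8.

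The shift was spread over the family. Of 54 histone genes with 20 or more counts in both 0 μM libraries together, 50 were lower on day 10, or 92.6%, where 51.5% of all genes at that depth were lower. In the stratum of 50 to 200 summed counts 22 of 23 histone genes were lower, against 59.1% of all genes in it. By type, day 5 exceeded day 10 by 2.89-fold for 12 H3 genes (2.38 to 3.52), 2.71-fold for 13 H4 genes, 1.67-fold for 18 H2B genes, 1.54-fold for 6 linker H1 genes and 1.32-fold for 18 H2A genes (1.20 to 1.46). Without Hist1h1c, the most counted member, the ratio was 1.75. On day 5 the H3 genes stood at 11.7 summed CPM at 0 μM, against 6.56 to 7.70 in treated libraries. The H4 genes stood at 9.56 summed CPM, against 5.17 to 6.25. On day 10 both types were lower at 0 μM, at 4.06 and 3.53 summed CPM, than in every treated library. Treated day 10 libraries at 100, 150 and 200 μM stood at 12.3, 5.79 and 6.38 summed CPM for H3. For H4 they stood at 7.31, 6.27 and 5.87. The H3 sum at 100 μM on day 10 was thus above that of 0 μM on day 5. The H1, H2A and H2B sums at 0 μM on day 5 were not above every treated library of that day.

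Among single members, Hist1h1c was counted 1237 and 546 times (-0.50, -0.65 to -0.35). Hist2h2bb was counted 96 times and 1 time, at 1.88 and 0.0315 CPM, a log2 ratio of -5.90 with an interval from -11.22 to -3.39. Hist2h3c1 had 155 and 32 counts (-1.59), Hist1h1e 76 and 17 (-1.48), Hist2h4 60 and 10 (-1.90) and Hist2h2ac 76 and 7 (-2.76). Other genes hold 51.4% of the 31-base stretches of the Hist2h2ac transcript, 35.4% of those of Hist2h3c1 and 34.7% of those of Hist1h1e, so their counts are uncertain. Summed with partner genes, the log2 ratios were -0.38, -1.40 and -1.55. All but Hist1h1c had fewer than 200 counts on either day. Treated counts follow in the order 100, 150 and 200 μM, day 5 first, and are not scaled for depth. Hist2h2ac had 2, 8 and 4, then 15, 8 and 7. Hist2h2bb had 13, 24 and 13, then 15, 14 and 22. Hist2h3c1 had 97, 226 and 122, then 150, 158 and 192. Hist1h1e had 31, 67 and 21, then 30, 57 and 53. Hist2h4 had 42, 100 and 40, then 33, 99 and 82. Hist1h1c had 1014, 1454 and 825, then 846, 1068 and 1159.

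The near-identical genes Hist2h2aa1 and Hist2h2aa2 moved in opposite directions. Hist2h2aa1 had 632 and 197 counts and Hist2h2aa2 113 and 197. All of the 31-base stretches of the Hist2h2aa2 transcript occur in other genes of the table, so the division of reads between the copies is uncertain; summed, day 5 was 1.18-fold day 10.

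The stem-loop that ends these messages is shown for 6 members because it is the common end of the messages of this family. It was searched as 6 stem bases that begin with GG, a loop of 4 bases that begins with TTT, and the reverse complement of the stem, on the sense strand of GENCODE M21 transcripts. Capitals mark the stem-loop, and 5 flanking bases are given on each side.
Hist1h1c: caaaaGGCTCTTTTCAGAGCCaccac
Hist1h1e: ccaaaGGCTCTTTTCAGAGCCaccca
Hist2h2ac: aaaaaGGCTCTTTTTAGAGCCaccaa
Hist2h3c1: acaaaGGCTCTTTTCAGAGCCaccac
Hist1h3c: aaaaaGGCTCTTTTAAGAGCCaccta
Hist2h4: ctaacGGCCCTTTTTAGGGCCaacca

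A match was found in 44 of the 67 clustered histone genes and in 72 of 22022 genes in all (0.327%). The 44 went from 75.9 to 46.8 summed CPM and the 23 without a match from 28.1 to 15.9 CPM, so genes with and without a match in the annotated transcripts were both lower. The 19 well-counted other genes with a match had a median log2 ratio of -0.03, and none passed 2-fold in either direction. On GRCm38, Hist1h1e lies at chr13:23620629-23622558 and Hist1h1c at chr13:23738808-23740367, in the large cluster of chromosome 13, and Hist2h2ac at chr3:96220361-96220880.

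Replacement histones differed little between the days. The 11 genes examined, among them H2afz, H3f3a and H3f3b, went from 1941 to 1867 summed CPM, a log2 ratio of -0.06, and none of the 10 with enough counts reached 1.5-fold. H3f3b was counted 37828 and 21062 times (-0.16), H2afz 15726 and 9305 times (-0.07) and the linker histone H1f0 20294 and 13248 times (0.07). The libraries were made from RNA bound to oligo(dT) beads, so messages without a poly(A) tail are counted only as far as that step let them through; how far it did so in each library was not tested.

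**Figure D3:**
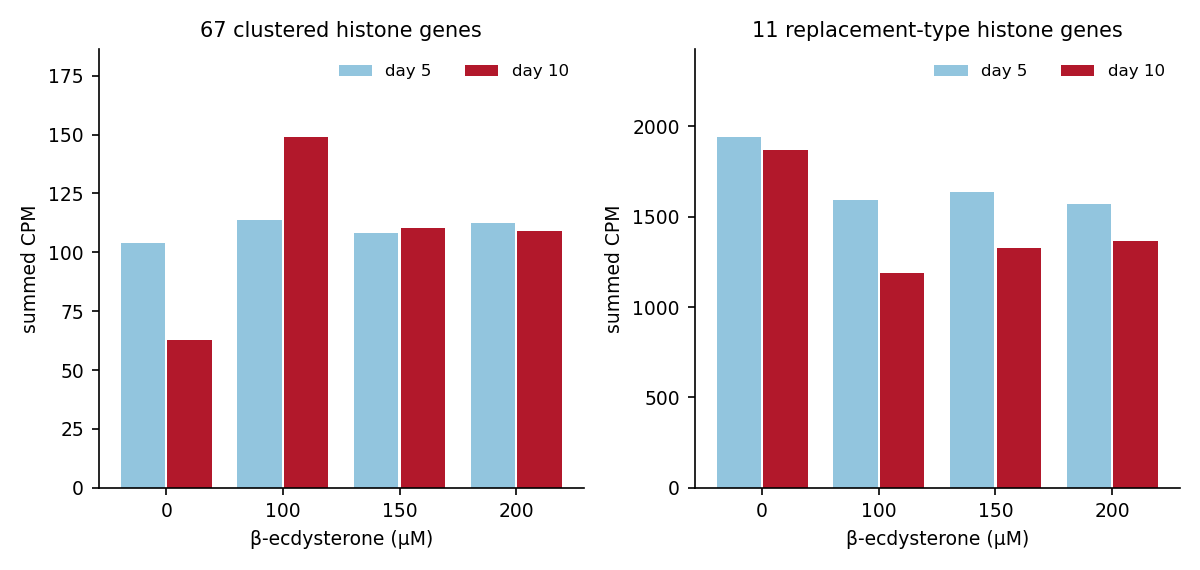
Bars give the summed CPM of the 67 clustered histone genes (left) and of 11 replacement histone genes (right) in the 8 libraries with a dose and a day, 1 library a bar. At 0 μM the clustered genes stood at 104 CPM on day 5 and 62.7 CPM on day 10, the lowest of the 8 bars, while the replacement genes stood at 1941 and 1867 CPM.

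The promoters of these histone genes share short elements. The windows were 300 bases of RefSeq promoter sequence, from 250 bases before the start site, on GRCm38.p6, and motifs were searched on both strands. The promoter set used did not cover every chromosome. The CCAAT letters were found in 85.2% of 61 clustered histone promoters and in 41.1% of all 27025 promoters of the set, and TATAAA in 57.4% and 15.7%. Among the genes over 2-fold lower at 0 μM, 47.1% of 68 promoters held CCAAT and 20.6% TATAAA; among those over 2-fold higher the shares were 59.3% and 11.1% of 27, and among all well-counted genes 43.9% and 8.44%. Of the 129 lower genes 11 were clustered histone genes, each of which passed the count filter only on day 5. The filter kept 22 clustered histone genes in all, and 1.03% of all well-counted genes were over 2-fold lower. This number thus depended on the filter and adds nothing to the summed counts above.

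CACGTG was found in 5.88% of the lower, 7.41% of the higher and 11.8% of the well-counted promoters, and ACGTG in 23.5%, 14.8% and 29.6%. TGANTCA stood in 5.88%, 11.1% and 6.05%, and TCACNCCAC in 1.47%, 0% and 1.34%. CACGTG contains ACGTG. The 250 bases before the start are shown for 2 histone genes that were over 2-fold lower on day 10, with CCAAT, its reverse complement and TATAAA in capitals; Hist2h2ac is at chr3:96220881-96221130 and Hist1h1e at chr13:23622559-23622808, both on the minus strand.
Hist2h2ac: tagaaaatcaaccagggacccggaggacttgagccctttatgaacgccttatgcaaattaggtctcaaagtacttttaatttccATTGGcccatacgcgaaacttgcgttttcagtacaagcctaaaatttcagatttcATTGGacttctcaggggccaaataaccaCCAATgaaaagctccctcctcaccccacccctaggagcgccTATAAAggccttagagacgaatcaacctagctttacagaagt
Hist1h1e: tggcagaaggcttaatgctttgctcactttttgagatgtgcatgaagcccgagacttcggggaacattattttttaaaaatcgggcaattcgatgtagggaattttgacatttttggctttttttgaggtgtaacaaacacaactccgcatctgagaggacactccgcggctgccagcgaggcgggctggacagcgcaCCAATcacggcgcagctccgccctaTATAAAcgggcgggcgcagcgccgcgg

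Many of the large single ratios, above all the rises, belonged to genes that share sequence with others. Among all Ensembl genes over 2-fold, 26 of the 50 higher and 31 of the 94 lower shared at least 20% of the 31-base stretches of their transcripts with other genes. Of the 12 largest falls and 12 largest rises among genes with 5 or more CPM, 15 did, namely 10 of the rises and 5 of the falls; the same held for 8.55% of all 11629 well-counted genes with a transcript. Reads from such stretches cannot be assigned to 1 gene with certainty. When the counts of each of the 15 were summed with those of its partner genes, all 15 sums lay within 2-fold and 14 within 1.5-fold, though a partner with many counts also sets the sum by its own weight.

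Raver1 and Gm38431 show the pattern. Raver1, an RNA-binding protein gene at chr9:21074158-21092008, was counted 1395 times on day 5 and 4081 times on day 10 (2.23, 2.14 to 2.32). Gm38431, a model at chr9:21067514-21091997 on the same strand that overlaps it, was counted 5812 and 518 times (-2.81). The sum of Raver1 and Gm38431 was 7207 and 4599 counts, a log2 ratio of 0.03.

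Glcci1 and Gm45062 showed the same exchange, with 1046 and 104 counts for Glcci1 (-2.65) and 188 and 714 for Gm45062 (2.61). Their sum had a ratio of 0.09. Gm20521, which shares its transcript with Pabpn1 and Bcl2l2, had 0 counts on day 5 and 162 on day 10, and 0 in all 6 treated libraries; with its partners the ratio was 0.001. Hnrnpa3, an RNA-binding protein gene with 682 and 2733 counts, kept the largest summed ratio of the 15, at 0.60 together with its copy Gm6793. The others included AL732309.1, with 622 and 16 counts (-4.60) and a summed ratio of 0.01, and Gm49380, with 157 and 742 counts (2.92) and a summed ratio of 0.10.

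**Figure D4:**
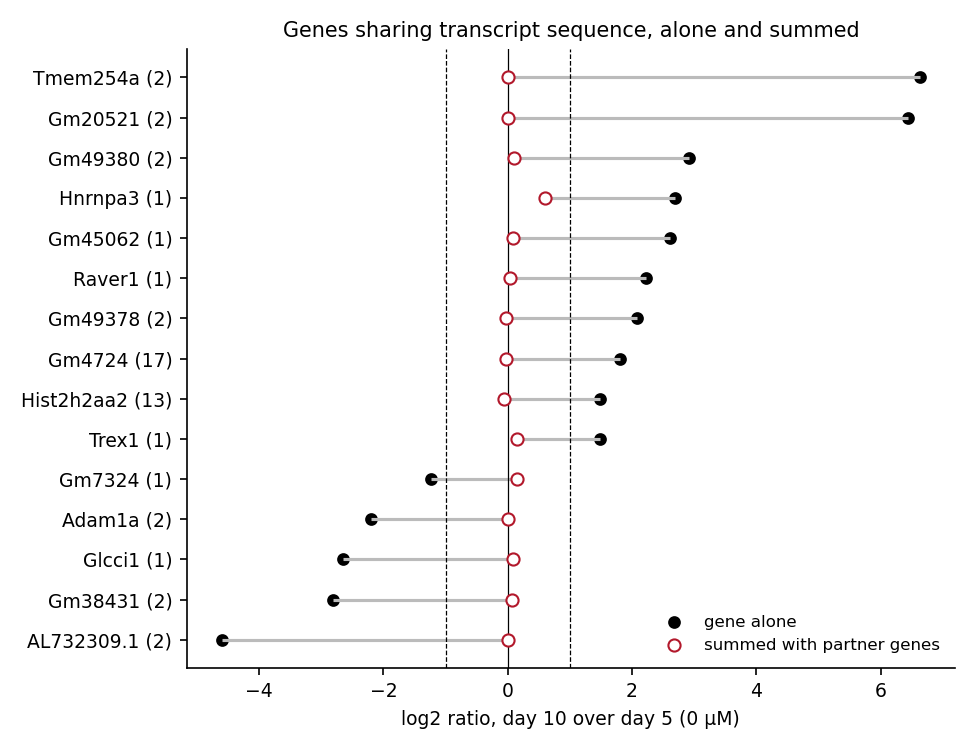
The 15 genes among the 24 largest ratios at 0 μM that share at least 20% of their transcript's 31-base stretches with another gene; the number of partner genes is in parentheses. Black points give the log2 ratio of day 10 over day 5 of the gene alone and open points that of the gene summed with its partners; all 15 sums lie between the dashed lines at 2-fold.

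The remaining 9 genes had no such partner among the genes of the table. Sequences outside the annotated transcripts of those genes were not searched, so sharing with such sequences was not tested. The most extreme were Ccnb1ip1 and Lars2. Ccnb1ip1 (chr14:50789248-50807732), a ubiquitin ligase gene known from meiosis, had 1019 counts on day 5 and 0 on day 10, so day 5 was at least 212-fold higher (floor of 3 counts). Lars2 (chr9:123366927-123462666), the mitochondrial leucyl-tRNA synthetase gene, was counted 99995 and 1901 times, at 1962 and 59.9 CPM (-5.03, -5.10 to -4.97). Neither value followed the day across the series. Lars2 was also high in the library of 100 μM on day 10, at 1827 CPM, and lay between 53.6 and 69.4 CPM in the other 5 treated libraries. Ccnb1ip1 stood at 22.8 CPM in that same 100 μM library and at 0.132 CPM or less in the other 5.

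Cd46, a complement regulator, was counted 41 and 151 times, at 0.805 and 4.76 CPM, against 8.998 to 12.64 CPM in treated libraries. It misses the limit of 5 CPM and is named through its interaction test below.

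Igfbp5, Sema5a, Col22a1 and Vav3 were lower on day 10 and had no partner gene in that search. Igfbp5, which binds insulin-like growth factors, was counted 2403 and 587 times, at 47.2 and 18.5 CPM (-1.35, -1.48 to -1.22), and stood at 282 CPM or more in every treated library. Sema5a, an axon guidance gene, was counted 1622 and 402 times, at 31.8 and 12.7 CPM (-1.33); its treated libraries lay between 7.78 and 16.7 CPM, so that day 5 was the highest of the 8. Col22a1 was at 13.6 and 5.29 CPM (-1.37), and Vav3, an exchange factor for small GTPases, at 6.22 and 2.68 CPM (-1.22). Rpl17, a ribosomal protein gene, was at 248 and 106 CPM (-1.23), with 103 to 189 CPM in treated libraries. Cngb1, a channel subunit gene, was higher at 3.06 and 9.04 CPM (1.56).

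Igf2, the growth factor bound by Igfbp5, was counted 52 times on day 5 and 1 time on day 10 (-5.02, -10.35 to -2.48). Treated libraries lay between 50.2 and 304 CPM, far above 1.02 and 0.0315 CPM at 0 μM. Of its transcript stretches 61.9% also occur in the model Gm49394, which had 23 and 40 counts, and the sum had a ratio of -0.19, so the drop of Igf2 between days is uncertain. The other 11 well-counted genes of the IGF system apart from Igfbp5 did not pass 1.5-fold; Pappa2, a protease that cuts IGF-binding proteins, was counted 16257 and 14762 times (0.54).

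Several metabolic lists were slightly higher on day 10, by about as much as the collagen and replication lists. Of 23 genes of sterol synthesis 20 were higher, with a median of 0.12. Of 13 mitochondrially encoded genes 11 were higher, also with a median of 0.12, and of 17 identifiers of glycolysis genes 13 were, with a median of 0.10. The summed level of the mitochondrially encoded genes changed little, from 43506 to 44684 CPM, and their share of all counts was 4.53% on both days. Medians nearer an equal level were 0.01 for 29 genes of BMP and TGF-β signalling, -0.04 for 29 genes of Wnt signalling, -0.04 for 21 hypoxia targets and -0.01 for 34 lysosomal genes. None of these lists had a member over 2-fold. Scaling by library totals lowers every log2 ratio by 0.0371, and the medians above for bone matrix and acute phase genes and the BMP and TGF-β median then turn negative. Smad7, an inhibitor of TGF-β signalling, was at 19.9 and 14.7 CPM (-0.44), and the receptor Tgfbr2 at 165 and 220 CPM (0.42). The ligand gene Wnt2b, with 57 and 65 counts (0.87, 0.34 to 1.41), and Wnt5b, with 289 and 120 counts (-0.59), stood on opposite sides.

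The stress, clock and hormone lists had medians within 0.08 of 0, and those of 0.03 or less among the positive ones below also turn negative with library totals. Medians were 0.07 for 29 identifiers of Atf4 and endoplasmic reticulum stress genes, 0.02 for 19 Nrf2 targets, 0.06 for 14 heat shock genes, -0.04 for 21 immediate early genes, -0.06 for 16 clock genes, 0.01 for 15 glucocorticoid-responsive genes and 0.03 for 15 genes of fatty acid synthesis. Tsc22d3, a glucocorticoid target, was at 84.9 and 113 CPM (0.41), and Gsta4, a glutathione transferase gene, at 6.95 and 4.16 CPM (-0.74). Of 5 genes that support osteoclasts 4 were lower, with a median of -0.40: Il34 (-0.43) and Csf1 (-0.16), ligands of the macrophage colony-stimulating factor receptor, Il6 (-0.43) and Pth1r (-0.40), the parathyroid hormone receptor.

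Markers of muscle and endothelial cells were low on both days, and markers of adipocytes and chondrocytes were present at higher sums. The sum of macrophage and blood cell markers was higher on day 10 through 1 gene, Lyz2. Of 3 well-counted genes in that list 2 were higher and 1 was lower. The summed level was 3.57 and 3.78 CPM for 17 skeletal muscle markers, 4.49 and 4.91 CPM for 12 endothelial markers, and 28.3 and 40.7 CPM for 17 macrophage and blood cell markers. In the last list Lyz2 (lysozyme) had 788 and 901 counts, at 15.5 and 28.4 CPM (0.88), a difference at least as large as that of the whole sum, and 7 of the 17 genes were at 0 on both days. Of the muscle markers 6 and of the endothelial markers 2 were at 0 on both days. Adipocyte markers summed to 84.5 and 89.9 CPM and chondrocyte markers to 108 and 123 CPM. In the latter list Sox6 had a log2 ratio of 0.66 and Col2a1 one of 0.42. Fewer cells of a type and less RNA per cell cannot be told apart in these bulk libraries.

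By KEGG pathways in the deposited annotation, with 20 or more well-counted genes each (272 pathways), the shares are read against 1.03% of all genes over 2-fold lower and 0.48% over 2-fold higher. The highest shares over 2-fold lower were 6 of 37 in systemic lupus erythematosus, 3 of 36 in hematopoietic cell lineage and 6 of 86 in alcoholism. In the first and the third, 5 of the 6 were histone genes (Hist1h2be, Hist2h2ac, Hist2h3c1, Hist1h2bn and Hist2h2bb), each of which passed the count filter only on day 5, so these shares add nothing to the summed counts above. ABC transporters followed with 2 of 31 and bile secretion with 2 of 33. Il1a and Gp1ba in hematopoietic cell lineage also passed the count filter only on day 5. So did Abca8a and Abcb4 in ABC transporters, and Abcb4 and Slc4a4 in bile secretion. These shares therefore depend on the filter as well. All are the extremes of 272 pathways and rest on few genes. The 5 highest shares over 2-fold higher each rested on 1 gene, among them Heph in mineral absorption and Cd46 in complement and coagulation cascades. Cd46 passed the count filter only on day 10.

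More genes passed 2-fold between day 5 and day 10 in the treated libraries. In the 11330 genes with 50 or more counts in all 8 libraries, 45 were over 2-fold different at 0 μM (0.397%; 25 higher and 20 lower). At 100 μM 186 genes were (1.64%), at 150 μM 167 (1.47%) and at 200 μM 231 (2.04%). The standard deviation of the log2 ratios was 0.223 at 0 μM and 0.302 to 0.368 at the doses. Each dose also had 1 library a day, and the spread of these numbers over replicate cultures is unknown. Few of the genes over 2-fold at 0 μM passed 2-fold in the same direction at a dose, and more of them did so in the opposite direction in most cases. Of the 60 higher genes, 46, 47 and 46 had 50 or more counts at 100, 150 and 200 μM. Of these 3, 4 and 4 were over 2-fold higher there and 7, 4 and 15 over 2-fold lower. Of the 129 lower genes, 68, 96 and 94 had enough counts. Of these 8, 4 and 6 were over 2-fold lower and 17, 18 and 34 over 2-fold higher. Over all genes with 50 or more counts in either library of the dose, 2.58%, 2.38% and 3.78% were over 2-fold higher and 1.6%, 2.11% and 1.42% lower. At each dose the genes over 2-fold at 0 μM exceeded these shares in both the same and the opposite direction, and depth was not matched. The comparisons at 0 μM and at the doses share no library.

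Among the 60 higher genes the 0 μM library of day 5 lay outside the range of the other 7 libraries in 26 (43.3%) and that of day 10 in 29 (48.3%). Among the 129 lower genes the counts were 52 (40.3%) and 65 (50.4%). For all well-counted genes the shares were 35.8% and 39.4%. The higher and lower genes were chosen by a large ratio between these same libraries, which favours extreme values in them. The difference between the shares is therefore no separate evidence.

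**Figure D5:**
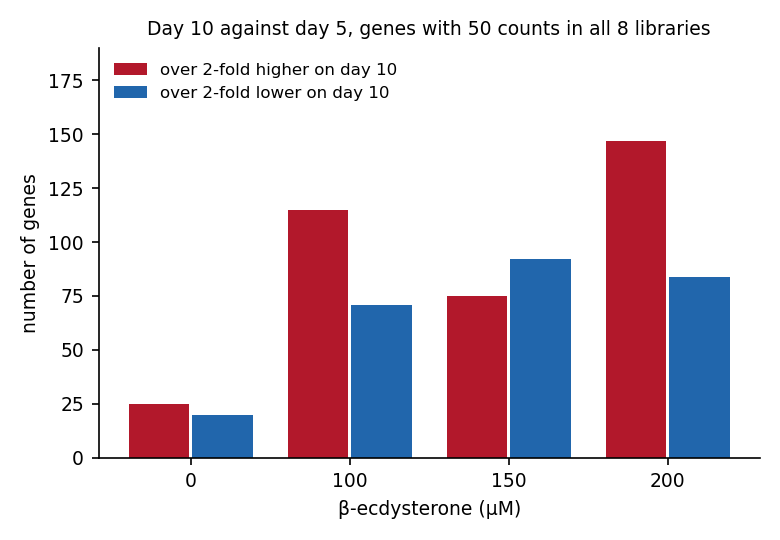
Number of genes over 2-fold higher (red) or lower (blue) on day 10 than on day 5 at each dose, among 11330 genes with 50 or more counts in all 8 libraries, 1 library per dose and day. At 0 μM there were 25 and 20 genes, and at the doses 75 to 147 higher and 71 to 92 lower.

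Whether a gene's day change at 0 μM differed from that in treated cells was tested with edgeR's quasi-likelihood test, with the 3 doses as replicates of treated cells and the lone 0 μM libraries assumed to vary like them. Of 17799 genes 2 had an adjusted p under 0.05 (0.0112%), and 1464 had an unadjusted p under 0.05. The 0 μM cells contribute no spread of their own to this test, and without the 200 μM libraries 0 genes were called, with 680 at an unadjusted p under 0.05. Tmem254a had the smallest adjusted p, 0.00924 by edgeR, and 0.14 without 200 μM. It was counted 0 times on day 5 and 185 times on day 10 at 0 μM, at least 99.0-fold higher, and stood between 3.00 and 4.75 CPM in all 6 treated libraries. Tmem254a is 1 of 3 near-identical copies with Tmem254b and Tmem254c; 72.9% of its transcript stretches occur in them, and the sum of the 3 was 1889 and 1187 counts, a log2 ratio of 0.01.

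Cd46 (adjusted p = 0.133 by edgeR), Igf2 (0.0657) and Prex2 (0.286), a Rac exchange factor gene at 1.32 and 4.79 CPM at 0 μM, did not pass. No member of the gene lists passed by edgeR (0 of 701 tested; 124 with an unadjusted p under 0.05), while DESeq2 called 13, Hist2h2aa1, Acta2, Ifit1, Mmp13, Ctsh, Fkbp14, Has2, Igf2, Plat, Rspo2, Sesn1, Sfrp2 and Shmt2, and limma 1, Igf2. Of the clustered histones edgeR called 0 of 62, with 17 at an unadjusted p under 0.05, DESeq2 1 and limma 0.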

How the data were processed

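RNA of MC3T3-E1 cells was selected on oligo(dT) beads and sequenced from TruSeq libraries. The deposited table gives read counts and FPKM per gene, both made by the authors; the processing notes name HISAT2 2.0.4 and GATK 3.2-2, and the counting program, strand setting and genome build are not given in the sources used here. The authors' own columns of comparisons (fold changes, false discovery rates and calls) were not used. Counts were the basis of all ratios, and FPKM served only to rank genes and as an alternative scale. The members, lists and comparisons were chosen with earlier results of these data known.

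Genes needed 50 or more counts in either 0 μM library. CPM used TMM factors over the 8 libraries with a dose and a day (edgeR 4.0.16, R 4.3.3); 0 counts were set to 3, a floor per library, for ratios. Intervals and floors cover counting error only, since reads carry no molecular identifiers. Genes were named by rule: the 12 largest rises and 12 largest falls with 5 or more CPM in the higher library, the 4 largest absolute ratios of each of 37 lists, the 5 smallest interaction p-values each way among genes over 2-fold, the 10 highest by FPKM on each day, and 7 osteogenic genes (Alpl, Runx2, Sp7, Bmp2, Col1a1, Spp1 and Bglap). Other genes were named after their values were seen, among them the further histone, partner and interferon genes and those called by DESeq2. Some genes that the rule names are not reported here. The difference between day changes was tested with edgeR's quasi-likelihood test and Benjamini-Hochberg adjustment over all genes tested. Scripts were tested on simulated data. Positions and transcripts are from GENCODE M21 (GRCm38), matched by Ensembl identifier for 22022 genes of the table; a partner gene shared 20% or more of a gene's 31-mers. Alternatives were DESeq2 1.42.0, limma 3.58.1, other scalings, filters and scales. Depth ran from 27108562 to 58218009 counts in the 8 libraries with a dose and a day; 50 counts is 0.981 CPM on day 5 and 1.57 CPM on day 10 at 0 μM.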

Additional observations from a re-analysis of the deposited data

Results flagged for a closer look

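Tmem254a passed the interaction test between treated and 0 μM cells (adjusted p = 0.00924, edgeR), in which the lone 0 μM libraries are assumed to vary like the 3 doses. It had 0 and 185 counts at 0 μM, and the 0 μM library of day 5 was the lowest of the 8 libraries. DESeq2 gave an adjusted p of 0.000571 and limma one of 0.000707; over the edgeR alternatives with other scaling, a dose block or a dose left out it ranged from 0.0029 to 0.14, and the call was lost without 200 μM. Tmem254a shares most of its transcript with Tmem254b and Tmem254c, and the part of read assignment in its value was not tested. In the 2 untreated libraries without a time it had 188 and 5 counts.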

How the results depend on the processing

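The counts of genes over 2-fold higher and lower (60 and 129) became 137 and 380 at 20 or more counts, 19 and 31 at 200 or more, 1878 and 894 with no filter, 17 and 21 on the log2(FPKM + 1) scale, and 28 and 47 where the whole counting interval had to pass 2-fold. With 2 or more CPM 53 genes were lower, and with the day 5 library thinned to the total of day 10 80 were; the higher counts stayed within 1.5 times (50 and 62). Chosen after seeing the data, 5 or more CPM gave 25 and 23, and Ensembl genes with under 1% of their 31-mers in another gene gave 18 and 46. Library totals, TMM from 2 libraries, DESeq2 size factors, a prior count of 2 and Ensembl genes alone kept both counts within 1.5 times; these scalings shifted every ratio by at most 0.0371 on the log2 scale, and among the 177 genes named by rule the sign changed for 3 near an equal level (Spp1, mt-Cytb and mt-Nd1, with library totals). The medians of 11 of 37 lists, all within 0.08 of 0, changed sign under at least 1 alternative. The median of the 27-gene histone list (-1.37) was -0.50 for 3 genes at 200 or more counts and -0.75 for 4 genes at 2 or more CPM.

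For the interaction test (0 more positive, 2 more negative in treated cells), DESeq2 called 53 and 25, limma 1 more positive and 3 more negative, and the dose block, which pairs the treated libraries by dose, 3 and 3. Requiring 10 counts in every library left 1 more negative. Leaving out each dose on both days gave 0 to 13 more positive and 0 to 7 more negative, with 0 of either without 200 μM. The cause was not tested. At 0 μM depth limits genes under 50 counts, 17073 of the table, of which 9046 were at 0 on both days.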

Other observations

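In the 2 libraries labelled untreated with no time, which enter no comparison, Alpl was counted 18 and 105 times, Igf2 1 and 5 times, Lars2 2154 and 4259 times, Ccnb1ip1 11 and 23 times, and Igfbp5 852 and 2897 times. The clustered histones summed to 158 and 230 CPM there, scaled by library totals.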
